A study of Bos taurus with 60 samples.

Results

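The descending colon was compared with the spiral colon in cattle by counting mature microRNAs (miRNAs) in small RNA libraries of the intestinal wall. The spiral colon is the coiled middle stretch of the ruminant colon, and the descending colon carries its contents on to the rectum. Of 60 libraries from 6 intestinal regions, the 20 colon libraries were used: 10 of the spiral colon and 10 of the descending colon. They were chosen by tissue label and paired by the letter in the library titles, A to J, which was taken as the animal. Letters A to E are cattle negative for fecal Escherichia coli O157, called non-shedders here, and letters F to J are super-shedders, which carried this bacterium in their feces in high numbers. The labels give no breed, age, sex or other treatment. Both shedding statuses entered the comparison together, with 5 letters of each in each region. The study set out to relate miRNAs to shedding, and the 2 colon regions of the same letters also allow a question about position along the gut: which miRNAs differ between neighbouring stretches of one organ.

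A miRNA is a short RNA that guides an Argonaute protein to messenger RNAs carrying a matching site, mostly in their 3′ untranslated regions, and lowers their translation and stability. Many miRNAs mark a cell lineage, so levels in a piece of gut wall follow its mix of epithelium, smooth muscle, blood, nerve and connective tissue. Others are transcribed from within the HOX gene clusters and mark position along the body axis, among them miR-196b. In bulk tissue, fewer cells of a type and less RNA per cell cannot be told apart.

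No miRNA passed the test between the 2 colon regions. Of 608 miRNA names in the count table, 258 had enough counts to be tested, and 0 of them (0%) had an adjusted p under 0.05 by the quasi-likelihood F test of edgeR with the letter as a block and Benjamini-Hochberg adjustment. The smallest adjusted p was 0.819. Before adjustment, 9 miRNAs (3.49%) had a p under 0.05, of which 8 (3.1%) had a higher and 1 (0.388%) a lower estimate in the descending colon. By DESeq2, 0 were called as well and 15 had an unadjusted p under 0.05. The estimates lay on both sides of 0, with 121 above and 137 below, and their median was -0.03 on the log2 scale. They ran from -0.77 for miR-375, which marks enteroendocrine and goblet cells, to 0.73 for miR-451, which marks red blood cells. No estimate was beyond 1 log2 unit, which is a 2-fold difference. The precision behind these values was uneven: the standard error (SE) had a median of 0.241 log2 units, with quartiles of 0.175 and 0.351. For 182 of the 258 miRNAs the whole 95% interval lay within 1 log2 unit of 0, and for 51 it lay within 0.5. For the other miRNAs a 2-fold difference was not outside the interval.

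**Figure D1:**
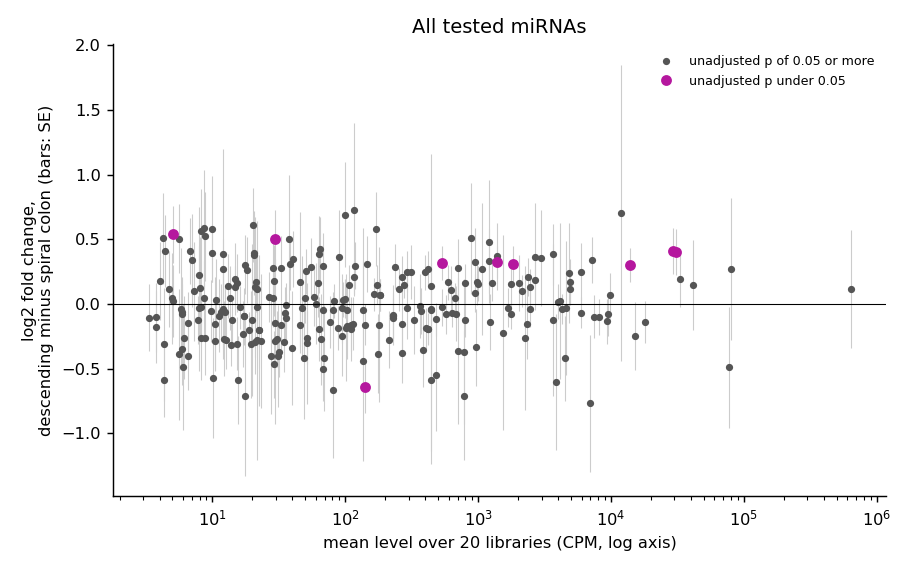
Log2 fold change between descending and spiral colon (vertical axis, bars are SE) against the mean level over the 20 libraries in CPM (counts scaled to a common library size, log axis) for the 258 tested miRNAs. The estimates scatter on both sides of 0 with a median of -0.03, and none is beyond 1 log2 unit.

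Depth ran from 966622 to 19346766 counts per library. The spiral colon libraries held 2747190 ± 1253020 counts (SD, n = 10) and the descending colon libraries 5559160 ± 6182380 (SD, n = 10), where the descending colon libraries of A and J were by far the deepest. The log2 totals differed by 0.467 (SD 1.17 over 10 letters; higher in the descending colon in 6 of 10 letters; p = 0.246, two-sided exact permutation test by sign flips within letters). The number of miRNA names with at least 1 count was 410 ± 15.9 in the spiral and 413 ± 49.9 in the descending colon (SD, n = 10; exact permutation p = 0.824). Levels below are CPM, counts scaled to a common library size, after scaling by TMM, a factor that evens out composition between libraries. The CPM of a dominant miRNA can therefore exceed that common size, as miR-143 did at up to 1430000 CPM in the descending colon.

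The 20 libraries did not all carry the levels of miR-196b seen in the rest of the colon. This miRNA, made from the HOXA cluster and low in most small intestine libraries of the series, was between 224 and 872 CPM in 15 of the 20 colon libraries. In the other 5 it was under 2 CPM. These were the spiral colon libraries of C (0.564 CPM), H (0.549 CPM) and I (0.652 CPM), and the descending colon libraries of G (1.22 CPM) and H (0 counts, which allows up to 1.71 CPM by counting error alone). The 30 small intestine libraries had a median of 1.10 CPM, 25 of them were under 50 CPM, and the highest reached 893.8 CPM. The related miR-196a, from the HOXB and HOXC clusters, was at 24.7 CPM or less in the same 5 libraries and in the descending colon library of I, and at 99.2 CPM or more in the other 14. In the cecum miR-196b ran from 0.794 to 1120 CPM and miR-196a from 1.19 to 422 CPM, so low levels also occurred under that label. By these 2 miRNAs the 5 libraries went against their colon label and lay in the range of most small intestine libraries. Whether their tissue labels are right could not be settled from the files, so their values may not be those of colon.

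The descending colon library of I stood apart in another way. Its summed level of 14 epithelial miRNAs was 3660 CPM, against 38784 to 251310 CPM in the other descending colon libraries. Its level of miR-486, a red blood cell miRNA, was 17780 CPM, against at most 636 CPM in the other 19 libraries. Its levels of miR-192 and miR-200b were the lowest of the region at 3197 and 41.0 CPM. Low epithelial sums were also found in the proximal (3110 CPM) and distal jejunum (6850 CPM) of letter I. The sums of that letter were 169535 CPM in the duodenum, 92744 CPM in the cecum and 130921 CPM in the spiral colon. A rule set on these markers (miR-196b under 50 CPM, or summed epithelium under 10000 CPM) put 6 libraries of the 4 letters C, G, H and I outside. Each list below is given with all letters and, in the same paragraph, without these 4. The labels name no batch. Without the 4 letters, 0 of 270 miRNAs were called and 3 had an unadjusted p under 0.05.

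**Figure D2:**
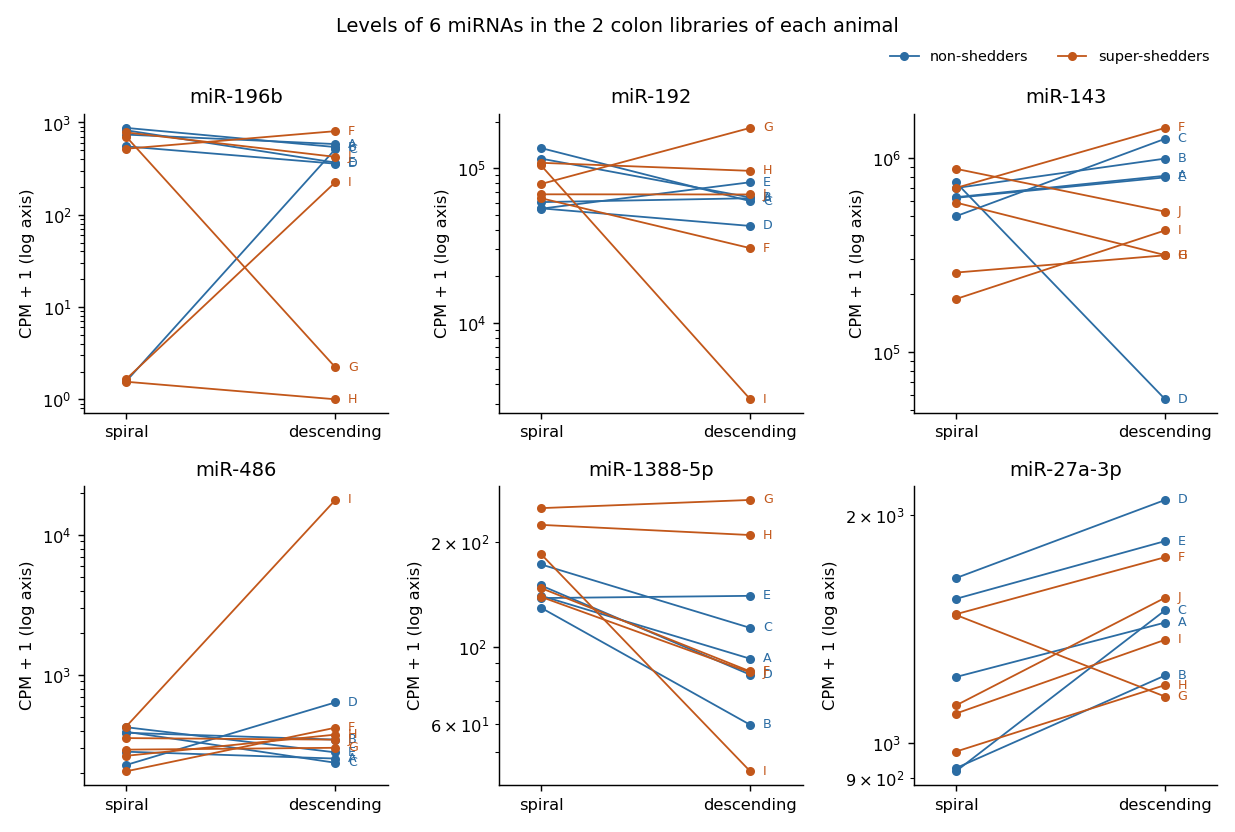
Levels of 6 miRNAs (CPM plus 1, log axis) in the spiral and the descending colon library of each letter, joined by a line (blue for the 5 non-shedders, orange for the 5 super-shedders). miR-196b is under 2 CPM in 5 libraries, the descending colon of I has the lowest miR-192 and the highest miR-486, and the descending colon of D has the lowest miR-143.

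The single miRNA with an unadjusted p under 0.05 and a lower estimate in the descending colon was miR-1388-5p. In the spiral colon it lay between 128.6 and 249.3 CPM with a median of 147.8 CPM, and in the descending colon between 42.9 and 263.2 CPM with a median of 87.7 CPM. The ranges overlapped, since the descending colon libraries of G and H were at 263.2 and 208 CPM, while 7 of the other 8 descending colon libraries were below every spiral colon library. The log2 fold change was -0.64 ± 0.20 (SE, n = 10 letters), with a 95% interval from -1.08 to -0.21, lower in the descending colon in 8 of 10 letters (p = 0.00698, adjusted p = 0.819 by edgeR). Over the alternatives this miRNA came nearest to a call with DESeq2, where its adjusted p was 0.0665. Without the 4 letters outside the marker rule its fold change was -0.73 ± 0.18. The other arm of the same hairpin, miR-1388-3p, was at 22.6 to 45.1 CPM in the spiral and 4.77 to 50.7 CPM in the descending colon. Its log2 fold change was -0.47 ± 0.26 and did not pass (p = 0.0985 before adjustment, edgeR). In the other regions of the series miR-1388-5p had median levels of 77.1 CPM in the duodenum, 168 CPM in the proximal jejunum, 143 CPM in the distal jejunum and 138 CPM in the cecum. The descending colon median was therefore between that of the duodenum and those of the other regions, with ranges that overlapped throughout.

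Among the miRNAs with higher estimates, miR-27a-3p had the smallest p. In human and mouse cells miR-27a is known to repress PPARG, a regulator of fat cell formation. Its level was 917 to 1649 CPM in the spiral colon (median 1171 CPM) and 1151 to 2090 CPM in the descending colon (median 1468 CPM). The groups overlapped over most of their range, but 9 of 10 letters were higher in the descending colon, and G was the exception. The log2 fold change was 0.32 ± 0.12 (SE, n = 10 letters; p = 0.0231, adjusted p = 0.819 by edgeR). Only 3 of 258 miRNAs (1.16%) had the same sign in at least 9 of 10 letters: miR-27a-3p, miR-99a-3p and miR-331-5p, all higher in the descending colon and the last 2 named after their values were seen. The estimates of miR-99a-3p (0.61 ± 0.28) and miR-331-5p (0.39 ± 0.23) did not pass either.

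miR-23a, whose gene lies next to that of miR-27a in the RefSeq annotation, had nearly the same estimate. It was at 374 to 590 CPM in the spiral colon (median 463 CPM) and 306 to 725 CPM in the descending colon (median 629 CPM), higher in 7 of 10 letters (log2 fold change 0.32 ± 0.13, p = 0.0308 before adjustment, edgeR). miR-24-3p, which the counts do not assign to a single cluster of this family, was higher in 5 of 10 letters, with 0.17 ± 0.17. A separate entry named miR-24 was higher in 4 of 5 non-shedder and 3 of 5 super-shedder letters. The other arm of the miR-27a hairpin, miR-27a-5p, was at 1.21 ± 0.42 in the blocked fit of all 60 libraries. It was at 1.37 ± 0.54 without the 4 letters outside the marker rule, was not called in either fit, and was named after its values were seen. The second cluster of this family gave 0.20 ± 0.22 for miR-27b and 0.16 ± 0.22 for miR-23b-3p. Scaling to total counts moved the estimates down as a group, with a median over all tested miRNAs of -0.19 in place of -0.03, and miR-27a-3p was then at 0.15 ± 0.25. Without the 4 letters outside the marker rule it was at 0.28 ± 0.16.

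miR-26a and miR-26c were the most abundant of the miRNAs with a p under 0.05 before adjustment. In human and mouse, miR-26a represses EZH2, a histone methyltransferase. miR-26a was at 18010 to 30230 CPM in the spiral colon and 20950 to 76060 CPM in the descending colon, and its log2 fold change was 0.40 ± 0.18 (p = 0.0439 before adjustment, edgeR). The highest value was that of the descending colon of I. miR-26c followed it closely, with 0.41 ± 0.18 and a ratio of counts to miR-26a between 0.919 and 0.971 in all 20 libraries. The authors' counting may have assigned the same reads to both names, so they are not independent results.

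Other miRNAs with higher estimates and a p under 0.05 before adjustment covered a wide span of levels. miR-22-3p, studied for its part in heart muscle growth in mice, was at 7254 to 19050 CPM in the spiral colon and 10410 to 24210 CPM in the descending colon (0.30 ± 0.13, higher in 8 of 10 letters). miR-500, of an X-linked cluster with miR-532, miR-362 and miR-660, was at only 1.10 to 6.85 CPM and 2.29 to 9.54 CPM (0.54 ± 0.22, 7 of 10 letters). Its neighbours miR-532, miR-362-5p and miR-660 had estimates of 0.07, -0.02 and -0.07. miR-335, which in human and mouse lies in an intron of the imprinted gene MEST, gave 0.50 ± 0.22, and miR-151-5p, which in human lies in an intron of PTK2, gave 0.31 ± 0.14. These last 2 were named after their values were seen.

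The next lower estimates after miR-1388-5p had p-values above 0.05 before any adjustment. miR-2285k, a ruminant miRNA of a large repeated family, was at 18.8 to 261 CPM in the spiral and 19.7 to 159 CPM in the descending colon (-0.51 ± 0.24). miR-95 was at 1.51 to 11.7 and 0.934 to 6.86 CPM (-0.59 ± 0.28). miR-7, a miRNA of neuroendocrine cells, was at 16.5 to 55.8 and 10.5 to 47.0 CPM (-0.37 ± 0.20, lower in 8 of 10 letters). miR-2284w was also lower in 8 of 10 letters (-0.32 ± 0.16), although its median was slightly higher in the descending colon, at 14.1 against 13.2 CPM. All of these groups overlapped over most of their ranges.

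**Figure D3:**
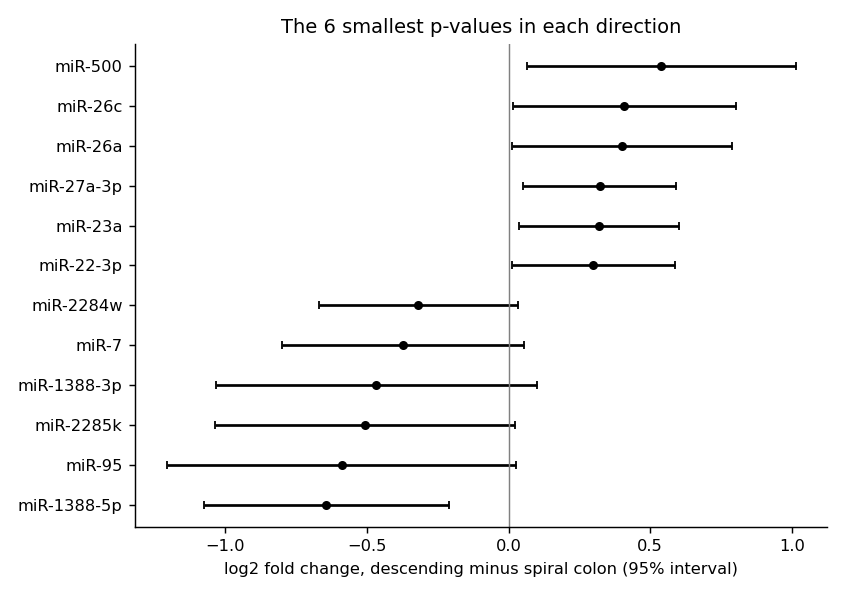
Log2 fold change between descending and spiral colon with its 95% interval for the 6 smallest p-values in each direction. The intervals of miR-1388-5p and of the 6 miRNAs with higher estimates do not reach 0 before adjustment, and no adjusted p is under 0.819.

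The most abundant miRNA was miR-143, which marks smooth muscle and other mesenchymal cells and took 55.97% of all counts in the 20 libraries. Its share was 51.2 ± 11.5% in the spiral and 49.1 ± 18.4% in the descending colon (SD, n = 10; exact permutation p = 0.809). The descending colon library of D was the lowest with 11.69%. The fold change of miR-143 was 0.11 ± 0.46, and scaling to total counts turned it to -0.13. miR-10b, which is made from the HOXD cluster, took 6.33% of counts (0.27 ± 0.55), miR-192 of enterocytes 6.04% (-0.49 ± 0.47), miR-10a of the HOXB cluster 3.56% (0.14 ± 0.35, and -0.04 when scaled to total counts) and miR-27b 2.88%. None of the 5 passed the test.

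Of 14 epithelial miRNAs tested, 0 were called, and 1 had an estimate above 0. Their median was -0.39, against -0.03 over all 258 tested miRNAs. miR-192, which rises as enterocytes differentiate, was at 54830 to 135500 CPM in the spiral colon (median 73600 CPM) and 3197 to 183000 CPM in the descending colon (median 64490 CPM). miR-375 was at 1884 to 14360 CPM and 51.5 to 11520 CPM (-0.77 ± 0.53). miR-200b, which represses the mesenchymal regulators ZEB1 and ZEB2, was at 1645 to 6471 CPM and 41.0 to 5756 CPM (-0.60 ± 0.53). In each of these 3 the lowest descending colon library was that of I, and the remaining ranges overlapped. The list median was -0.15 without letter I, with 3 of 14 estimates above 0, and -0.24 without the 4 letters outside the marker rule, with 5 of 14 above 0. It was 0.11 in the non-shedders (10 of 14 above 0) and -1.18 in the super-shedders (0 of 13), or -0.43 in the super-shedders without I (3 of 13).

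miR-215, a relative of miR-192, was the 1 epithelial miRNA with an estimate above 0. It ran from 1604 to 30080 CPM in the spiral colon (median 6396 CPM) and from 236 to 45570 CPM in the descending colon (median 13860 CPM). Its fold change was 0.71 ± 1.15, higher in 6 of 10 letters. It ran from 0.21 (without G) to 1.23 (without I) when 1 letter was left out, and was 1.48 ± 0.70 without the 4 letters outside the marker rule and -0.03 with limma-voom. It was 1.24 ± 1.02 in the non-shedders and -0.08 ± 1.92 in the super-shedders, or 1.23 ± 1.39 in the super-shedders without I. The highest value of each region came from a library with miR-196b under 2 CPM: the spiral colon of C, at 30080 CPM against 1231 CPM in its descending colon, and the descending colon of G, at 45570 CPM against 2021 CPM in its spiral colon. In the small intestine the mean was 28980 CPM in the duodenum, 22860 CPM in the proximal and 17910 CPM in the distal jejunum. In the cecum, the stretch just before the colon, miR-215 lay between 354 and 1764 CPM in all 10 libraries, and its lowest level in the spiral colon was within that range.

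Of 6 muscle miRNAs tested, 5 had estimates above 0, with a median of 0.15 that was -0.08 when scaled to total counts. miR-145, transcribed with miR-143, was at 358 to 3622 CPM and 216 to 16370 CPM (0.37 ± 0.42). miR-133a, of muscle, was at 101 to 1792 and 81.2 to 2567 CPM (0.27 ± 0.51). Without the letters outside the marker rule 1 of the 6 was above 0 and the median was -0.14. The summed epithelial and the summed muscle level went in opposite directions in 7 of 10 letters. In D the difference of the muscle sum, descending minus spiral, was -3.71 log2 units. These sums rest mostly on single miRNAs: the spiral colon median was 629400 CPM for the muscle sum and 625300 CPM for miR-143 alone. By list medians, G (-0.23 for epithelium and -0.84 for muscle) and J (0.26 and 0.22) were not opposite, while B, C, F, H and I were.

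All 9 leukocyte miRNAs tested had estimates below 0, with a median of -0.38, and 0 were called. miR-142-5p, which is made in all blood cell lineages, was at 2560 to 8257 CPM in the spiral and 767 to 9473 CPM in the descending colon (-0.42 ± 0.33). miR-142-3p, from the other arm of that hairpin, was at 224 to 1318 CPM in the spiral and 41 to 1203 CPM in the descending colon (-0.55 ± 0.43). miR-146a, which restrains NF-kappa-B signalling, was at 307 to 2865 CPM in the spiral and 301 to 2684 CPM in the descending colon (-0.34 ± 0.30). miR-150, of mature lymphocytes, was at 155 to 1047 CPM in the spiral and 126 to 1057 CPM in the descending colon (-0.36 ± 0.29). By letter, the list median ran from -2.19 in I to 0.62 in D and was below 0 in 6 of 10. Without I the list median was -0.17, with 2 of 9 above 0, and without the 4 letters outside the marker rule it was -0.18, also with 2 of 9 above 0.

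The red blood cell miRNAs miR-451 and miR-486 both had estimates above 0 (0.73 ± 0.67 and 0.48 ± 0.47). miR-486 was at 204 to 427 CPM in the spiral colon and, without I, at 235 to 636 CPM in the descending colon. Without I the 2 estimates were 0.35 ± 0.52 for miR-451 and 0.17 ± 0.22 for miR-486, and without the 4 letters outside the marker rule 0.39 ± 0.59 and 0.20 ± 0.32. Of 11 stromal and endothelial miRNAs tested, 10 had estimates above 0 with a median of 0.25, against 6 and 0.05 when scaled to total counts. Without I 9 of 11 were above 0, with a median of 0.15, and without the 4 letters outside the marker rule 6 of 11, with a median of 0.12. The summed level of this list was 70136 CPM in the descending colon of I, against at most 23066 CPM in the other descending colon libraries. miR-126-5p, the endothelial miRNA encoded within EGFL7 in mammals, was at 3335 to 8186 CPM in the spiral and 3418 to 16650 CPM in the descending colon (0.25 ± 0.22). miR-125b was at 857 to 4195 CPM in the spiral and 1089 to 11620 CPM in the descending colon (0.36 ± 0.37) and miR-100 at 1087 to 7657 CPM in the spiral and 860.4 to 25650 CPM in the descending colon (0.02 ± 0.60). The highest miR-100 level was that of the descending colon of I, and the miR-100 estimate ran from -0.30 to 0.30 when 1 letter was left out. miR-199a-3p, of mesenchymal cells, was at 1694 to 3513 CPM in the spiral and 282 to 4303 CPM in the descending colon (-0.15 ± 0.28) and was the 1 member below 0. Of 6 neural miRNAs tested, 1 was above 0, with a median of -0.17 that was -0.044 without I and -0.12 without the 4 letters outside the marker rule. miR-9-5p, of neurons, was at 73.1 to 155 CPM in the spiral and 40.8 to 180.2 CPM in the descending colon (-0.16 ± 0.20). In the table were 4 miRNAs of pancreas and liver, and 0 were tested, since their summed level was at most 2.44 CPM in any colon library.

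The HOX cluster miRNAs gave no common direction. miR-10a and miR-10b had estimates above 0 and miR-196a and miR-196b below 0 (-0.44 ± 0.77 and -0.04 ± 1.20), with a median of 0.05 that was -0.05 when scaled to total counts. The wide errors of both miR-196 members came with the libraries under 2 CPM described above. In the 6 letters inside the marker rule the estimates were -0.56 for miR-196b and -0.39 for miR-196a, and the median of the 4 HOX miRNAs tested was -0.29. Those letters were kept by their miR-196b level, so these values are a description with no test.

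Of 12 imprinted miRNAs of the DLK1-DIO3 cluster tested, 10 had estimates above 0 with a median of 0.30. miR-127, the most abundant, was at 2223 to 5091 CPM in the spiral and 1778 to 8993 CPM in the descending colon (0.38 ± 0.24, higher in 8 of 10 letters). miR-411a was at 492 to 1668 and 522 to 2030 CPM (0.33 ± 0.25). The non-shedders gave a median of 0.41 with 12 of 14 above 0, the super-shedders 0.05 with 7 of 12, or -0.15 with 4 of 13 in the super-shedders without I. Without the 4 letters outside the rule the median was 0.14, with 10 of 17 above 0. The list of 12 members of the miR-17-92 family, linked to cell proliferation, had 0 estimates above 0 and a median of -0.11, and the median was -0.04 without I (3 of 12 above 0) and -0.065 without the 4 letters outside the marker rule (4 of 12). Its most abundant member, miR-92a, was at 5343 to 14050 CPM in the spiral and 4233 to 17920 CPM in the descending colon (-0.10 ± 0.17). The let-7 family, linked to cell differentiation, had 6 of 10 above 0 and a median of 0.11 that turned to -0.06 when scaled to total counts and to -0.038, with 2 of 10 above 0, without the 4 letters outside the marker rule. Of 9 members of the ruminant miR-2284 and miR-2285 family, 8 were below 0, with a median of -0.20, and without the 4 letters 8 of 10 were below 0 with a median of -0.22. miR-2284x and miR-2284y had counts in ratios of 0.991 to 1 in the 20 libraries and may share reads.

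**Figure D4:**
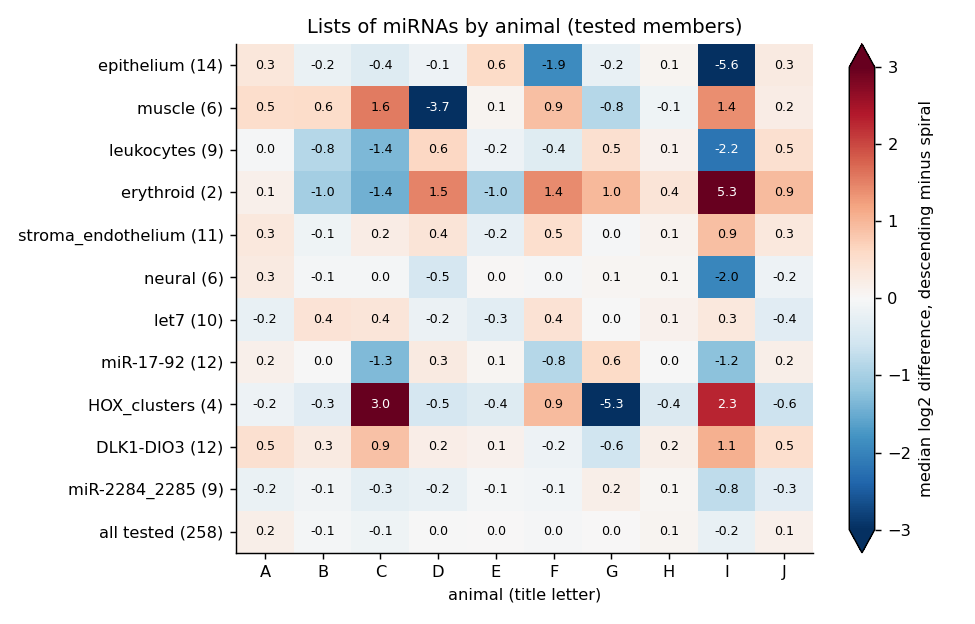
Median log2 difference between descending and spiral colon of each list's tested members in each letter (colours cover -3 to 3 and are clipped beyond, cells give the values). Letter I is at -5.6 for epithelium and 5.3 for erythroid, D is at -3.7 for muscle, and G is at -5.3 for the HOX clusters.

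The difference between the regions was also read per letter. Counting the 258 miRNAs more than 2-fold apart between the 2 colon libraries of a letter, with 1 CPM added to every level, gave 11 in H, 23 in A, 26 in E, 38 in B, 43 in J, 46 in G, 49 in D, 50 in F, 69 in C and 137 in I (53.1%). The median absolute log2 difference between the 2 regions of a letter had a median of 0.438 over the 10 letters. Between 2 letters within the spiral colon it was 0.468, within the descending colon 0.613, and between different letters in different regions 0.534. These are descriptions with no test. The letter H, whose regions were nearest to each other, had miR-196b near 0 in both.

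**Figure D5:**
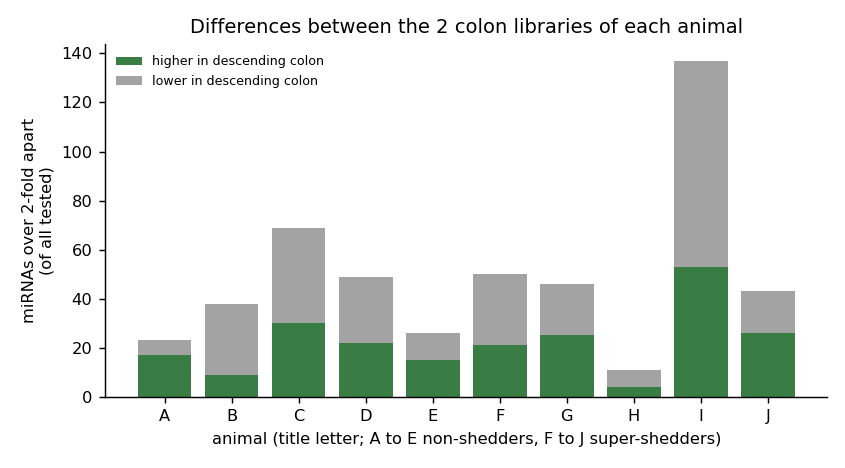
Number of the 258 tested miRNAs more than 2-fold higher or lower in the descending than in the spiral colon of each letter. Letter I has 137 and letter H 11.

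Whether the difference between the regions depended on shedding was tested by the region by status term of the same edgeR model. Of 258 miRNAs, 0 (0%) were called, 4 (1.55%) had an unadjusted p under 0.05, and the smallest adjusted p was 0.997. DESeq2 called 0 as well, with 3 under 0.05 before adjustment. miR-451 had the smallest p: its difference was 2.79 ± 1.03 log2 units larger in the super-shedders, and the mean difference of the letters was -0.69 in the non-shedders and 2.22 in the super-shedders (higher in 5 of 5 super-shedders and in 2 of 5 non-shedders; p = 0.0200, adjusted p = 0.997 by edgeR). Next came miR-6119-3p (1.10 ± 0.45), miR-452 (-1.18 ± 0.48), miR-183 (-1.58 ± 0.70) and miR-92b (-0.82 ± 0.41). In the colon miR-6119-3p was at most 11.6 CPM and miR-452 at most 15.7 CPM. Without letter I, miR-451, miR-6119-3p, miR-452 and miR-183 were at 2.13 ± 0.80, 1.20 ± 0.47, -1.48 ± 0.44 and -1.07 ± 0.44. Of the 4 letters outside the marker rule, C is a non-shedder and G, H and I are super-shedders. Without them 0 of 270 miRNAs were called, with 4 under 0.05 before adjustment. miR-199a-3p led that fit with -1.9 ± 0.65, and miR-451 was at 2.27 ± 0.93. Within the non-shedders 8 of 258 miRNAs (3.1%) had an unadjusted p under 0.05, and within the super-shedders 1 of 249 (0.402%), with no call in either. miR-27a-3p led in the non-shedders (0.49 ± 0.16), where miR-411a followed with 0.68 ± 0.22. In the super-shedders the 1 miRNA was miR-451 (2.12 ± 0.69, and 1.49 ± 0.36 without I).

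The same paired test was run between the colon regions and their neighbours, as a scale for a result of 0 calls. Cecum against distal jejunum, across the border of small and large intestine, gave 24 calls of 251 (9.56%), of which 10 were higher and 14 lower in the cecum. Spiral colon against cecum gave 0 of 263 (0%) with 25 under 0.05 before adjustment, and descending colon against cecum 0 of 261 (0%) with 14. Against the distal jejunum the descending colon gave 0 of 241 (0%) with 65 under 0.05, and the spiral colon 0 of 245 (0%) with 34. These comparisons share libraries, and differences between their counts were not tested. The colon groups hold the 6 libraries outside the marker rule, and miR-196b reached 893.8 CPM in the distal jejunum. Both colon comparisons with the distal jejunum cross the same border, so a result of 0 calls does not show that 2 regions are alike. miR-196b was 6.73 ± 1.99 log2 units higher in the cecum than in the distal jejunum but did not pass (adjusted p = 0.0504, edgeR).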

How the data were processed

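The deposited table holds the authors' read counts per mature miRNA, raw and whole, 1 column per library, matched to the samples by title. Per the labels, libraries came from snap-frozen biopsies with the mirVana and TruSeq small RNA kits. The extraction text speaks of rectal tissue throughout; groups here follow the tissue labels of the 6 regions. Bowtie and edgeR are named in the submitters' processing notes. What each did, the genome build, the annotation and how multiply matching reads were shared are not stated in the labels, so no coordinate is printed. The RefSeq gene table (ARS-UCD2.0) served only to see which miRNA genes neighbour each other.

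The 20 colon libraries were scaled by TMM and filtered with filterByExpr (minimum count 10). They were tested two-sided in edgeR 4.0.16 (quasi-likelihood F test, R 4.3.3), with the title letter as a block and Benjamini-Hochberg adjustment over all miRNAs tested (threshold 0.05). The region by status term used the same model. limma 3.58.1 (voom) and DESeq2 1.42.0 were alternatives. Printed CPM use TMM factors over all 60 libraries, and differences per letter add 1 CPM. Depth was compared with an exact paired permutation test. A count of 0 was given a limit of 3 counts, which covers counting error only, since the labels name no molecular identifiers.

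The letter was taken as the animal because a letter never changes status between regions and the labels describe several tissues per animal. After removal of region means, same-letter libraries correlated at 0.158 on average and others at -0.0178, and 5 of 10 letters exceeded 0.1. The values ran from -0.209 in G to 0.676 in H, with F at 0.464 and I at -0.0139, so not every letter showed a pairing. Chi-square per degree of freedom between libraries of a region was 59.82 to 5560 over 90 pairs, so none is a copy of another. Named miRNAs were to be those past the adjusted threshold and averaging 10 CPM or more; with fewer than 6 in a direction, the smallest p-values were added up to 6. The 5 most abundant, the 5 smallest p-values of the status term and up to 4 abundant members of each list were added. The tests were checked on simulated data. The members and lists were chosen with earlier results of these data known. The marker rule (miR-196b under 50 CPM or epithelium under 10000 CPM) came from values of these libraries, and the comparisons with cecum and distal jejunum were added after seeing the data.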

Additional observations from a re-analysis of the deposited data

Results flagged for a closer look

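Over 120 groups of 10 libraries, 19 held a highest or lowest library set apart from the other 9 by a Dixon test. Levels of miRNAs entered on the log2 scale, and total counts, detected miRNAs and the miR-143 share entered untransformed. Chance alone flags about 1 in 20 groups. Of the 19 flagged, 10 belong to the descending colon of letter I. That library was the lowest of its region for miR-192 (3197 CPM), miR-375 (51.5 CPM), miR-200b (41.01 CPM), miR-183 (3.815 CPM) and the neural miR-128 (28.61 CPM). It was the highest for miR-486 (17780 CPM), miR-451 (1225 CPM), miR-26a (76060 CPM), miR-26c (73830 CPM) and let-7i (5011 CPM).

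In the descending colon of H, miR-92a (17920 CPM) and miR-25 (2509 CPM) were the highest and miR-23a (305.6 CPM) the lowest. In that of D, miR-143 (56950 CPM) and miR-2284x (237 CPM) were the lowest. The descending colon of G was lowest for miR-452 (2.443 CPM) and that of J for miR-199a-3p (281.6 CPM). In the spiral colon, C was lowest for miR-200b (1645 CPM) and I highest for miR-93 (691.3 CPM).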

How the results depend on the processing

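Under the alternatives run, 0 miRNAs were called between the regions in each setting, and between 1 and 20 had an unadjusted p under 0.05: 8 with RLE size factors, 1 scaled to total counts, 7 of 568 with no low-count filter, 15 with DESeq2, 11 with limma-voom and 6 of 209 after thinning every library to the smallest total. Leaving out 1 letter at a time gave 2 (without C) to 20 (without G). With no replicate block there were 0 calls and 14 under 0.05, where miR-486 led with 2.77 ± 0.82, against 0.18 ± 0.23 in the 14 libraries inside the marker rule. In fits of all 60 libraries 14 with and 15 without the block were under 0.05, of 288 tested, and miR-486 had the smallest adjusted p of 0.0625 without it (edgeR). The pairing of letters rests on the titles. The status term stayed at 0 calls, with 1 to 7 under 0.05 when 1 letter was left out; its median turned from -0.12 to 0.07 with RLE size factors.

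Of 64 results other than list medians, 34 changed sign in at least 1 alternative (107 of 1588 values). Of 11 list medians, 8 did so (25 of 286 values), and no miRNA was called in any setting. The 64 count the miRNAs named for the status term again for that term. They also include the numbers of miRNAs with an unadjusted p under 0.05, which cannot change sign. miR-143 was -0.13 scaled to total counts, -0.092 with limma-voom, -0.26 without the letters outside the marker rule and -0.13 in letters F, G, H and J, and ran from -0.093 to 0.37 when 1 letter was left out. miR-10b was -0.19 and -0.45 in the latter settings (-0.078 to 0.59), and miR-10a -0.036 scaled to total counts, then -0.049 and -0.22 (-0.050 to 0.32). The difference in detected miRNAs was -9.10 after thinning and ran from -6.89 to 9. The marker-rule fit of 14 libraries with no block (13 under 0.05), letters F, G, H and J alone, and the status term without the letters outside the rule were chosen after seeing the data.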

Other observations

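miR-378b, which belongs to no list above, was at 41.4 to 57.6 CPM in the spiral colon of A, B, C and D and at 1.10 to 3.57 CPM in that of E to J. In the descending colon B, C and D were at 39.3 to 60.7 CPM, while A was at 0.847 CPM and E to J were at 1.45 to 7.63 CPM. Letter A is thus the only one of the 10 that sat on different sides of the gap in the 2 regions. The descending colon libraries of A and J, the 2 deepest, had the lowest miR-409a of the 20, with 0.847 and 0.0726 CPM, against 3.01 to 87.7 CPM in the other 18. The cause was not tested in either case. Both miRNAs were named after their values were seen.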
